A study of Homo sapiens with 59 samples.

Results

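H2AK119ub was examined after induced knockdown of both DPPA2 and DPPA4 in NCI-H661, an established line of human lung large cell carcinoma. The 4 ChIP libraries of this mark from the line shDPPA2+4 were taken by line, target and treatment from the sample labels, out of 59 samples in all. The line carried doxycycline-inducible hairpins of the miR30 type against both genes. It was made by adding a tagBFP vector with the DPPA4 hairpin to cells that already held the mVenus DPPA2 hairpin, and was used as a sorted bulk population, not as a clone. Cells received 2 µg/ml doxycycline (DOX) for 7 days in replicates 1 and 3, and water (H2O) in replicates 1 and 3, so there were 2 libraries per group in 2 numbered pairs. The H2O cells carry both hairpins too. The line with a non-targeting hairpin was not analysed here, so an effect of doxycycline itself cannot be told apart from that of the knockdown. DPPA2 and DPPA4 transcripts are not measured in these libraries, so the knockdown was not checked here.

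H2AK119ub is a single ubiquitin placed on the tail of histone H2A by RING1 or RNF2, the catalytic subunits of Polycomb repressive complex 1 (PRC1). Some forms of PRC1 are recruited by CBX proteins that read H3K27me3, the mark of Polycomb repressive complex 2 (PRC2), and others, with KDM2B, PCGF1 or PCGF6, are brought to CpG-rich promoters without it. The mark is best known at promoters of developmental regulators that carry H3K4me3 and H3K27me3 together and are called bivalent. DPPA2 and DPPA4 are DNA-binding partners of the early embryo and germline, known from mouse embryonic stem cells for binding bivalent promoters.

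A domain is a stretch of the genome enriched over input as listed by the authors, kept here where its log2 fold exceeded 1 and its FDR was below 0.05. A promoter is the window of 1500 bp on each side of the transcription start site (TSS) of a protein-coding gene, 20007 in all, and it is marked when at least 300 bp of it lie under domains. Sequences of 3 lost and 2 gained promoters, among those with the longest coverage in the treatment that marks them, are shown first. Their number of CG does not separate the kinds, as those of the lost lie between those of the gained. The sequences run from 250 bases before to 50 after the RefSeq start (GRCh38.p14), with each CG dinucleotide in capitals. Lost promoters were INPP1 (chromosome 2, 190343339 to 190343638, plus strand, 17 CG), ZDBF2 (chromosome 2, 206274413 to 206274712, plus strand, 18 CG) and CUL1 (chromosome 7, 148697506 to 148697805, plus strand, 8 CG). Gained promoters were CEBPE (chromosome 14, 23119206 to 23119505, minus strand, 2 CG) and ITGAV (chromosome 2, 186589806 to 186590105, plus strand, 23 CG).
INPP1: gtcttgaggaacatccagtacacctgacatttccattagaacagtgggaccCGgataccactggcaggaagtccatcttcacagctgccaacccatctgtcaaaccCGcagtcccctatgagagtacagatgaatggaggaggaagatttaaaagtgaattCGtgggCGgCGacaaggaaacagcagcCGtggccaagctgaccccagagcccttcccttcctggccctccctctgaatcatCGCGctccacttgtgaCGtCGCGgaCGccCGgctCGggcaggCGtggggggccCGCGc
ZDBF2: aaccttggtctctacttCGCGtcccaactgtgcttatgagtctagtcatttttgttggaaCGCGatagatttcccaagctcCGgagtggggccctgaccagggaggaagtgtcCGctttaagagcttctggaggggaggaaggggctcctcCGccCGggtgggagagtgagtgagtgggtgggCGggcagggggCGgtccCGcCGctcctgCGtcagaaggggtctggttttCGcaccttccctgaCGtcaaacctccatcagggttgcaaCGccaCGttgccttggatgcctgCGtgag
CUL1: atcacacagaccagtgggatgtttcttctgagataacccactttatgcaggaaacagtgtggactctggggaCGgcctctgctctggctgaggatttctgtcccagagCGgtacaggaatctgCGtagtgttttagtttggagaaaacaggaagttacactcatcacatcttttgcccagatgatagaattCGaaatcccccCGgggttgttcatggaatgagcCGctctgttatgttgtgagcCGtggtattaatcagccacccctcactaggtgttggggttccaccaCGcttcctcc
CEBPE: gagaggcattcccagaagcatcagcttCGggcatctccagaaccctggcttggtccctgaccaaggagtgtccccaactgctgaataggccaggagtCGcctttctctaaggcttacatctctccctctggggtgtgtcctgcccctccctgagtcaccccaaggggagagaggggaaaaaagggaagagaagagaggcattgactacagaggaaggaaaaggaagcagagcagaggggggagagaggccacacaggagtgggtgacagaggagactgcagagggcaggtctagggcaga
ITGAV: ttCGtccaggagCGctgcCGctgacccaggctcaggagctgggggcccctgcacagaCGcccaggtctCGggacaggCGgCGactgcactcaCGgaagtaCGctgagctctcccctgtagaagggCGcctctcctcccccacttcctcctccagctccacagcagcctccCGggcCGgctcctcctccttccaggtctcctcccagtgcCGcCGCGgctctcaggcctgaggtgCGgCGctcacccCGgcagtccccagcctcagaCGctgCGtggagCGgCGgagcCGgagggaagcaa

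The 4 libraries differed among themselves as much as the treatments did, and DOX replicate 3 stood apart. Its median Jaccard index to the other 11 H2AK119ub libraries of the knockdown lines was 0.255, against 0.327 for DOX replicate 1, 0.313 for H2O replicate 1 and 0.318 for H2O replicate 3. It overlapped H3K27me3 of its own line (0.135) more than H3K4me3 (0.0862). DOX replicate 1 had 0.0461 with H3K27me3 and 0.209 with H3K4me3, H2O replicate 1 had 0.0757 and 0.205, and H2O replicate 3 had 0.0797 and 0.165. The DOX replicate 3 libraries of the lines with 1 hairpin were alike in this, with 9.40% (shDPPA2) and 11.7% (shDPPA4) of their covered bases at promoters, against 13.4% here. ChIP reads inside domains numbered 2578428 in DOX replicate 1, 3871308 in DOX replicate 3, 3099221 in H2O replicate 1 and 1614678 in H2O replicate 3. All domains of a treatment were called against the one input of that treatment, so a difference between the inputs cannot be told apart from one of treatment. With 2 libraries per group an exact permutation test cannot go below p = 0.333, nor below p = 0.5 over 2 pairs, so library values carry no test.

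The amount of genome under H2AK119ub moved in opposite directions in the pairs. DOX replicate 1 had 55691 domains over 60.1 Mb and DOX replicate 3 had 93106 over 95.0 Mb. H2O replicate 1 had 56402 domains over 91.7 Mb and H2O replicate 3 had 51333 over 57.0 Mb. The covered length was thus lower with DOX by 31.6 Mb in pair 1 and higher by 37.9 Mb in pair 3, and the groups overlapped.

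Domain widths were compared at the middle and the upper end of their distribution. The median width was 700 bp in DOX replicate 1 and 800 bp in DOX replicate 3, against 1100 bp in H2O replicate 1 and 800 bp in H2O replicate 3. The 90th percentile of width was 2100 and 1800 bp with DOX, against 3200 and 2000 bp with H2O. Domains of 5000 bp or more numbered 761 and 899 with DOX, or 1.37 and 0.966% of domains, and 2208 and 550 with H2O, or 3.91 and 1.07%. Their share differed by -2.55 points in pair 1 and by -0.106 in pair 3. Domains of 10 kb or more numbered 93 and 116 with DOX, and 263 and 54 with H2O, fewer with DOX in pair 1 and more in pair 3. The widest single domain, 62800 bp, was in DOX replicate 1. Reads per kilobase of covered sequence, unscaled for depth, were 42.9 and 40.8 with DOX, against 33.8 and 28.3 with H2O. Divided by the ratio of the ChIP to the input total of each library, they were 14.8 and 13.3 with DOX, and 14.6 and 16.5 with H2O, so the groups that were apart before scaling overlapped after it. Each treatment has its own input, so these scaled values also move with the input total and are not scaled for ChIP depth alone.

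**Figure D1:**
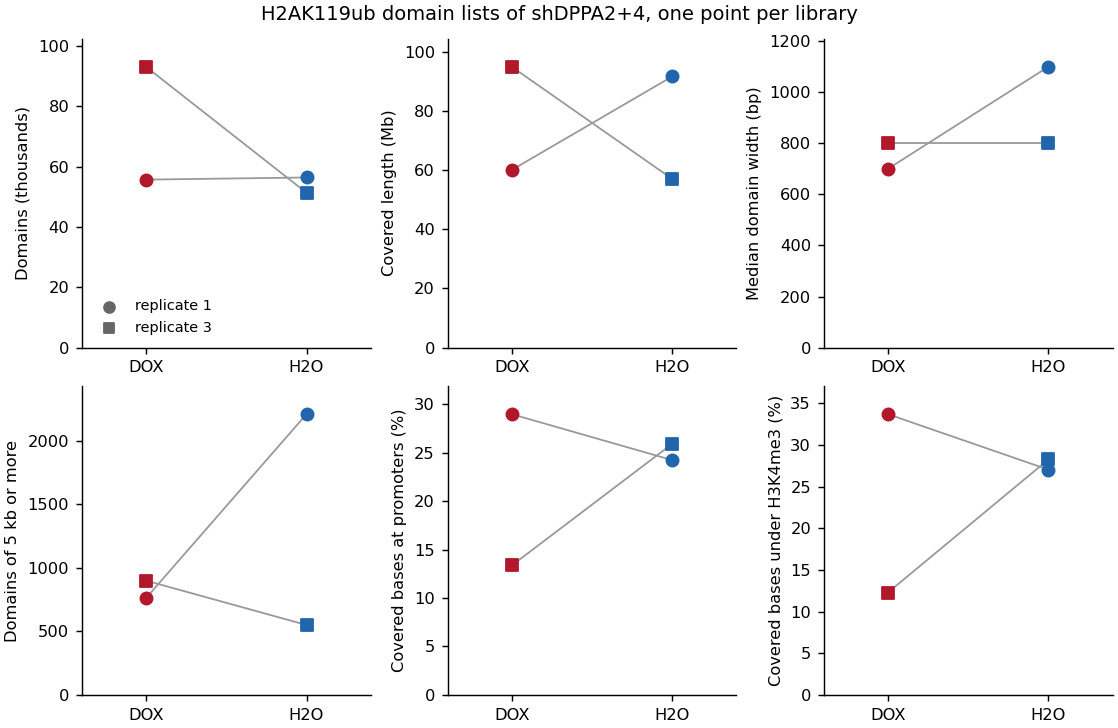
Values of the 4 H2AK119ub lists of shDPPA2+4 (y axes, with units), DOX in red and H2O in blue, circles for replicate 1 and squares for replicate 3, with lines joining pairs. The pairs cross in domain number and covered length, and DOX replicate 3 lies lowest in the share of covered bases at promoters (13.4%) and under H3K4me3 (12.3%).

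The place of the domains separated DOX replicate 3 from the rest. Promoter windows held 29.0% of covered bases in DOX replicate 1 and 13.4% in DOX replicate 3, against 24.2% in H2O replicate 1 and 25.9% in H2O replicate 3. Gene bodies held 34.1 and 37.6% with DOX, and 34.8 and 33.1% with H2O. Sequence outside both held 37.0 and 49.0% with DOX, and 41.0% in each H2O library. Bases under H3K4me3 of the H2O cells made up 33.7 and 12.3% with DOX, and 27.1 and 28.3% with H2O, while those under H3K27me3 made up 10.5 and 16.5% with DOX, and 11.4 and 17.8% with H2O.

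Promoters were classed by the other marks of the H2O cells. Of the 20007, 11753 carried H3K4me3 without H3K27me3 (H3K4me3-only), 1650 were bivalent, 690 were H3K27me3-only, 4678 had neither and 1236 differed between replicates. H2AK119ub marked 68.4% of H3K4me3-only promoters in DOX replicate 1 and 41.1% in DOX replicate 3, against 71.2% in H2O replicate 1 and 55.0% in H2O replicate 3. The share was 54.7% ± 19.4 with DOX and 63.1% ± 11.5 with H2O (SD, n = 2 each), with differences of -2.81 and -14 points in the pairs and groups that overlapped. Of bivalent promoters 89.8 and 95.0% were marked with DOX, and 95.8 and 95.5% with H2O. Both DOX values lay below both H2O values, by -6.0 points in pair 1 and -0.485 in pair 3. H3K27me3-only promoters ran apart, with 20.3 and 60.3% marked with DOX, and 32.0 and 36.8% with H2O. Promoters with neither mark had 13.7 and 18.4% with DOX, and 16.4 and 10.9% with H2O.

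Around the TSS the mark lay on both sides of a dip, with its summit 500 to 600 bp downstream in the H3K4me3-only and bivalent classes. At H3K4me3-only promoters the summit reached 53.3% of promoters in DOX replicate 1 and 30.4% in DOX replicate 3, against 59.7% in H2O replicate 1 and 42.5% in H2O replicate 3. At the TSS itself a domain was found at 32.3 and 8.63% with DOX, and 40.4 and 21.7% with H2O. Each replicate number thus had its own level, and at the summit and the TSS the DOX value lay under that of H2O in both pairs. At 5 kb from the TSS, as a mean of both sides, it was 6.89 and 4.66% with DOX, and 9.96 and 4.36% with H2O, higher with DOX in pair 3. At bivalent promoters the TSS was covered at 63.9 and 66.8% with DOX, and 81.3 and 71.3% with H2O, and here the groups did not overlap. They overlapped at the summit, with 75.5 and 85.03% with DOX, and 88.5 and 84.7% with H2O, and at 2 kb downstream, with 39.5 and 54.2% with DOX, and 60.7 and 48.9% with H2O, where pair 3 was higher with DOX. At H3K27me3-only promoters the TSS was covered at 10.7 and 38.6% with DOX, and 20.4 and 19.7% with H2O, so that the DOX libraries stood on either side of a nearly equal H2O pair.

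**Figure D2:**
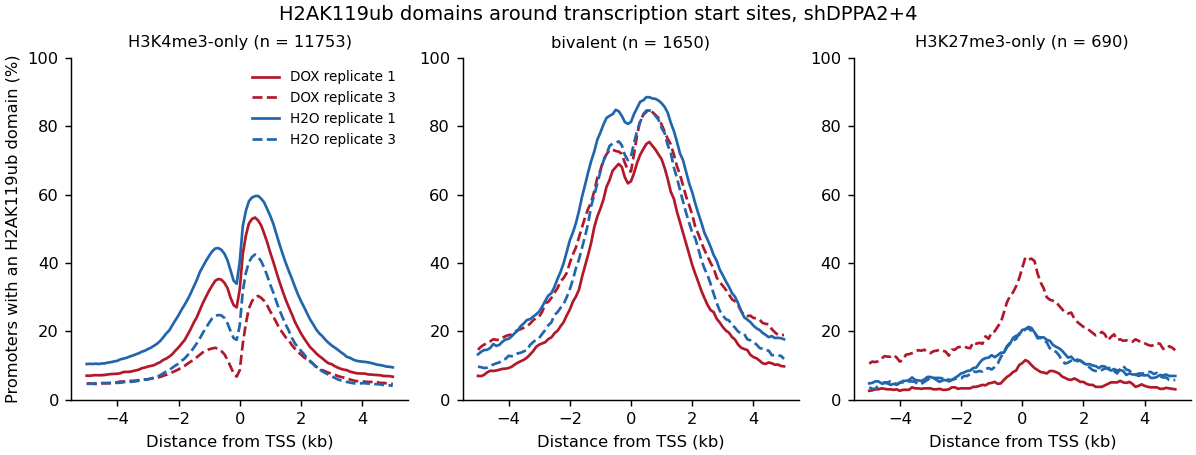
Percent of promoters with an H2AK119ub domain (y axis) at each distance from the TSS (x axis, kb, downstream to the right) for H3K4me3-only (n = 11753), bivalent (n = 1650) and H3K27me3-only (n = 690) promoters, DOX red and H2O blue, solid for replicate 1 and dashed for replicate 3. Within each replicate number the DOX line lies under the H2O line at the summit of H3K4me3-only promoters, and at H3K27me3-only promoters DOX replicate 3 lies highest (38.6% at the TSS) and DOX replicate 1 lowest (10.7%).

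Promoters that stayed marked were more often narrower than wider in coverage with DOX. In all, 6412 promoters were marked in all 4 libraries, 73.5% of the 8721 marked in both H2O libraries. At the 4168 kept H3K4me3-only promoters the median covered length was 2201 and 1300 bp with DOX, and 2692.5 and 1749.5 bp with H2O. Of these, 48.0% were narrower with DOX in both pairs and 5.23% wider in both. At the 1424 kept bivalent promoters the medians were 2388.5 and 2601 bp with DOX, and 2801 and 2600.5 bp with H2O, with 30.5% narrower and 4.63% wider in both pairs. Of the 91 kept H3K27me3-only promoters 13.2% were narrower and 15.4% wider in both pairs.

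Lost promoters were marked in both H2O libraries and in neither of DOX, and gained ones the other way round. By this rule 443 promoters were lost, 2.21% of all promoters and 5.08% of those marked in both H2O libraries, and 154 were gained (0.77%). Libraries of one treatment differed by more than this. DOX replicate 1 alone of its group marked 3728 promoters and DOX replicate 3 alone 1204, while H2O replicate 1 alone marked 2837 and H2O replicate 3 alone 671. Without DOX replicate 3, 774 promoters were lost and 1002 gained. That setting compares 1 DOX library with 2 of H2O, so the rule asks unlike things of a loss and a gain. Without both libraries of replicate 3, 1994 promoters were lost and 1302 gained. Of the 443, 397 had no base under a domain in either DOX library, and of the 154 gained 140 had none in either H2O library. Of the lost promoters 375 (84.7%) were H3K4me3-only and 16 (3.61%) bivalent, and of the gained 74 (48.1%) were H3K4me3-only, 50 (32.5%) had neither mark and 10 (6.49%) were H3K27me3-only. In other words, 3.19% of H3K4me3-only and 0.970% of bivalent promoters were lost, and 0.630 and 0.242% were gained.

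H3K4me3 stood at most lost promoters under both treatments. It marked 91.2 and 92.1% of them with DOX (replicates 1 and 2), and 91.2 and 91.9% with H2O. H3K27me3 marked 8.80 and 5.42% with DOX (replicates 1 and 3), and 8.35 and 7.00% with H2O. Gained promoters carried H3K4me3 at 52.6 and 53.9% with DOX, and 54.5 and 53.9% with H2O. H3K27me3 stood at 20.8 and 18.2% of them with DOX, and 16.2 and 13% with H2O, with no overlap between the groups. At kept promoters it stood at 30.1 and 24.2% with DOX, and 29.2 and 25.1% with H2O. The H3K27me3 lists covered more of the genome with DOX. Shared bases made up 46.3% of DOX and 68.4% of H2O in replicate 1, and 23.7 and 67.6% in replicate 3. Whether the separation goes beyond this was not tested.

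CG dinucleotides were counted in the promoters of each kind. In the 300 bases around the RefSeq start, found for 15345 (76.7%) of all promoters, the letters CG, which read the same on both strands, were present in 98.1% of promoters, with a median of 22 per promoter. The median was 26 in 353 lost promoters, 17 in the gained promoters, 29 in 4850 kept promoters and 9 in 4693 promoters that no library marked. Within the H3K4me3-only class the medians were 27 for lost, 27 for gained and 31 for kept promoters. Fewer than 80% of promoters had a sequence, so these medians describe only those that did. Of the lost promoters 24.4% lay within 3000 bp of the TSS of another coding gene, against 17.1% of all, so a pair of genes can share a lost window.

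The lost promoters given here, 11 of the 12 with the longest coverage in H2O, were almost bare with DOX, since the rule chose them so. INPP1, an inositol phosphatase (TSS 190343589), had 0 and 0 bp with DOX, and 2912 and 3001 bp with H2O. ZDBF2, an imprinted gene (TSS 206274663), had 0 and 0 bp with DOX, and 3001 and 2701 bp with H2O. CUL1, the scaffold of SCF ubiquitin ligases (TSS 148698903, 1147 bp downstream of the RefSeq start of the printed sequence), had 0 and 0 bp with DOX, and 2701 and 2898 bp with H2O. All these windows carry H3K4me3 and no H3K27me3. The others were PPP2R5A, a regulatory subunit of phosphatase PP2A, the tight junction gene OCLN, the cytokine signalling factor STAT4, the spindle gene HAUS4, the peptidoglycan sensor NOD1, the amino acid transporter SLC7A8, the actin-severing CFL1 and the muscle fusion gene MYMX. STAT4 was the one bivalent promoter among them, with 0 and 0 bp with DOX, and 3001 and 2494 bp with H2O. CFL1 alone kept any base with DOX, at 80 and 0 bp, against 2801 and 2200 bp with H2O.

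The gained promoters were less even. CEBPE, a transcription factor of granulocytes with neither mark at its promoter (TSS 23119255), had 2346 and 3001 bp with DOX, and 55 and 0 bp with H2O. It lies on chromosome 14 between the lost promoters of HAUS4 (TSS 22957090) and SLC7A8 (TSS 23183660). ITGAV, the integrin alpha V chain (TSS 186590056), had 2945 and 1000 bp with DOX, and 0 and 0 bp with H2O. ATP5PD, a subunit of ATP synthase, had 2532 and 1300 bp with DOX, and 69 and 169 bp with H2O. CENATAC, IQCE, RNF175, VOPP1 and the F-box gene FBXO4 completed the 8, at 600 to 3001 bp with DOX, and 0 to 222 bp with H2O. Among the 8 the replicate 1 value was the higher DOX value in 6, the exceptions being CEBPE and RNF175.

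**Figure D3:**
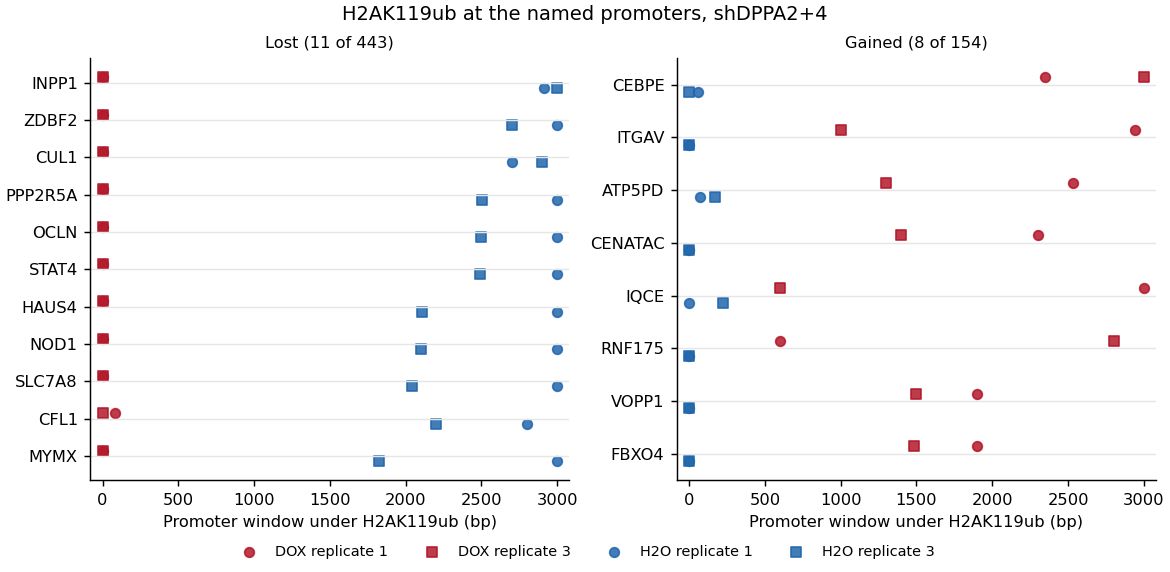
Base pairs of the 3001 bp promoter window under H2AK119ub domains (x axis) for 11 of 443 lost and 8 of 154 gained promoters (y axis), DOX red and H2O blue, circles for replicate 1 and squares for replicate 3. The lost promoters have 0 to 80 bp with DOX, and the DOX values of gained promoters spread from 600 to 3001 bp.

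The lines with 1 hairpin were libraries that the choice of these promoters did not use. At the 443 lost promoters the marked share in shDPPA2 was 68.8% with DOX and 65.5% with H2O in pair 1, and 8.13 and 60.3% in pair 3. In shDPPA4 it was 51.5% with DOX and 77.4% with H2O in pair 1, and 19.9 and 54.2% in pair 3. The mean difference was -27.3 points (SD 23.2, lower in 3 of 4 pairs). An exact two-sided permutation of the signs gave p = 0.25, where 0.125 is the smallest possible, and without shDPPA2 replicate 3 the mean was -19 points. Over all promoters the same pairs differed by 4.50, -21.4, -11.3 and -11.9 points, and at the 6412 kept promoters by 4.21, -29.5, -8.52 and -15.3 points. Of the 443, 39 were lost in shDPPA2 too (8.80%, and 7.21% of its 541) and 72 in shDPPA4 (16.3%, and 7.44% of its 968), against 2.70 and 4.84% of all promoters. Of the 154 gained, 10 were gained in shDPPA2 too (6.49%, and 3.62% of its 276) and 5 in shDPPA4 (3.25%, and 7.14% of its 70), against 1.38 and 0.35% of all promoters. All promoters include many that no rule could count as lost or gained, so these background shares are low. In shDPPA2+4, losses were 2.21% of all promoters but 5.08% of those marked in both H2O libraries. Such shares were not computed for the other lines. The gained promoters differed by -6.33 points on average (SD 20.3, lower in 3 of 4 pairs, exact p = 0.625).

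The named groups of genes had 0 to 2 lost promoters each, read beside 2.21% of all. HOX genes, which lay out the body axis, had 0 of 39 promoters lost and 0 gained, and 94.9% were marked in each of the 4 libraries. Of the developmental transcription factors 1 of 144 was lost (SOX5, 0 and 0 bp with DOX, 1270 and 570 bp with H2O). Of the Wnt list 2 of 67 were lost, the receptor genes FZD3 (0 and 0 bp with DOX, 2812 and 1000 bp with H2O) and LGR4 (0 and 0 bp with DOX, 2111 and 1300 bp with H2O), and of axon guidance 0 of 71. DNA replication lost 2 of 48, the origin recognition gene ORC5 and the primase subunit PRIM2, and gained MCM10. Of the PRC1 subunits 0 of 25 were lost and PCGF6, of a CpG-island form of PRC1, was gained (1100 and 600 bp with DOX, 0 and 0 bp with H2O). None of the 12 PRC2 subunits, 6 deubiquitinases of the mark, 38 proteasome genes, 31 immediate early genes or 23 G1 regulators was lost or gained. Ribosomal proteins had 1 of 78 gained (RPS21).

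Lineage lists gave single promoters. EPCAM, an epithelial adhesion molecule, was lost from the lung epithelial list of 30, with 0 and 0 bp with DOX, and 2811 and 1300 bp with H2O. CHGB (neuroendocrine, 17 genes), S100A4 (mesenchymal, 27) and the B cell receptor gene CD79A (blood, 24) were lost too, while TYROBP of the blood list was gained. Among 40 germline and early embryo genes the testis factor DMRT1 was lost, with 0 and 97 bp with DOX, and 1500 and 1397 bp with H2O, and the oocyte gene NLRP5 was gained, with 700 and 800 bp with DOX, and 0 and 0 bp with H2O. The 37 silent tissue genes, used as a background, had 29.7 and 56.8% of promoters marked with DOX, and 32.4 and 29.7% with H2O, so DOX replicate 3 marked more of these promoters than the other libraries. DPPA2 had no covered base in any library, and DPPA4 had 55 and 0 bp with DOX, and 0 and 0 bp with H2O.

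The genes that the study names for this mark, a list chosen on these samples, had 0 of 9 lost and 0 gained. FOXO3, a forkhead factor, had 3001 and 1417 bp with DOX, and 3001 and 3001 bp with H2O. CDK6, a G1 kinase, had 3001 and 600 bp with DOX, and 3001 and 1728 bp with H2O. PAX6, a homeobox factor, had 2801 and 1079 bp with DOX, and 2801 and 2101 bp with H2O. In these 3 genes coverage was equal in pair 1 and lower with DOX in pair 3. CYP26A1, which degrades retinoic acid, was covered over 3001 bp in all 4 libraries, TFAP2C had 3001 and 2801 bp with DOX, and 3001 and 3001 bp with H2O. ITGB8 had 2900 and 500 bp with DOX, and 0 and 2700 bp with H2O. FOXP2 had no covered base at its canonical TSS (chromosome 7, 114414815), but at the 5′ end of the gene (114086327), a window added after seeing the data, it had 3001 and 901 bp with DOX, and 3001 and 2801 bp with H2O. With the 5′ end as TSS, FOXO3 had 2835 and 700 bp with DOX, and 3001 and 2535 bp with H2O, and PAX6 had 2540 and 500 bp with DOX, and 2801 and 2701 bp with H2O.

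Domains of the H2O cells were followed into the DOX libraries. Joining domains of the H2O libraries that overlapped by more than 50% of the shorter gave 20971, with a median width of 2100 bp. A domain counted as absent when a DOX library covered less than 25% of its bases. Of the 20971, 29.0% were absent in DOX replicate 1, 29.99% in DOX replicate 3 and 2792 (13.3%) in both. These domains had to be called in both H2O libraries, so some absence with DOX follows from the rule. Domains of the DOX libraries were not followed into H2O in the same way. The Jaccard index was 0.331 between the H2O libraries, and 0.356 and 0.267 between DOX and H2O within pairs 1 and 3. Narrow domains were absent most often, with 30.2% of those under 1 kb absent in both libraries, 20.6% at 1 to 2 kb, 7.13% at 2 to 5 kb, 1.36% at 5 to 10 kb and 1.05% at 10 kb or more (4 of 381).

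The DOX libraries missed different kinds of domain. Domains at promoters were absent in 13.7% in DOX replicate 1 and 29.3% in DOX replicate 3, and those outside genes in 41.6 and 32.4%. Domains under H3K4me3 alone were absent in 12.8 and 36.2%, and those under H3K27me3 alone in 53.9 and 19.1%, the reverse order. Domains under both marks were absent least often, at 11.2 and 6.11%, and in 2.80% in both libraries. Domains under neither mark were absent in 39.9 and 31.8%.

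**Figure D4:**
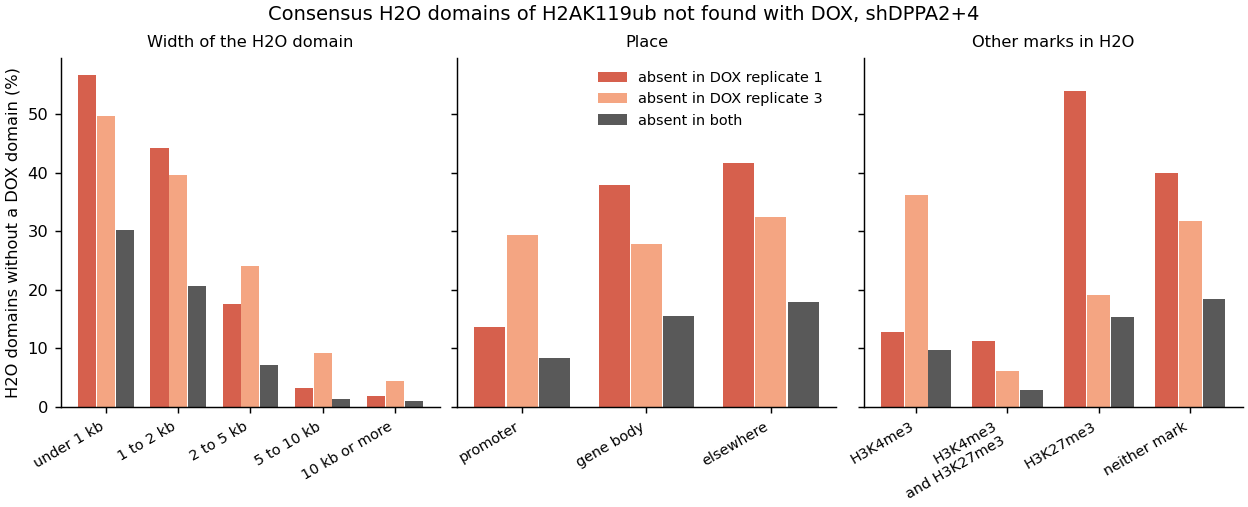
Percent of 20971 consensus H2O domains of H2AK119ub without a DOX domain (y axis, from 0) by width, place and other marks in H2O, for DOX replicate 1 (dark red), DOX replicate 3 (light red) and both (grey). The bars fall with width, down to 1.05% absent in both at 10 kb or more, and the replicates change order between H3K4me3 (12.8 and 36.2%) and H3K27me3 (53.9 and 19.1%).

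The widest and most heavily read stretches of the mark lay over developmental loci and over gene-dense parts of chromosomes 19 and 20. Merging the domains of the 4 libraries gave 125151 regions, of which 81831 came from a single library (44808 of these from DOX replicate 3) and 13265 had a domain in each. Regions found in both DOX and neither H2O library numbered 3252, and those found in both H2O and neither DOX library 2351. The highest mean count, 4468.75 reads, lay over NKX2-1, the lineage factor of lung and thyroid (chromosome 14, 36492701 to 36532600, with SFTA3). Its count was 4738 and 5125 with DOX, and 4733 and 3279 with H2O, with 33.7 and 34.3 kb called with DOX, and 31.2 and 39.5 kb with H2O. Nearby PAX9, a paired box factor (36637401 to 36672700), had 2485 and 3136 reads with DOX, and 2611 and 1475 with H2O. IRX4, an Iroquois homeobox gene (chromosome 5, 1862501 to 1903000), had 2346 and 4153 reads with DOX, and 2307 and 2021 with H2O. Scaled for depth, the log2 fold changes of NKX2-1, PAX9 and IRX4 were 0.09 (SE 0.23), 0.27 (SE 0.21) and 0.30 (SE 0.21), each with an adjusted p of 1.00 in edgeR.

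The widest merged region, 64.0 kb on chromosome 19 (39379401 to 39443400) over SAMD4B, PAF1, MED29, ZFP36, PLEKHG2 and RPS16, was uneven. It was called over 62.8 kb in DOX replicate 1 and 10.2 kb in DOX replicate 3, against 54.6 kb in H2O replicate 1 and 23.3 kb in H2O replicate 3. PAK4, NCCRP1 and SYCN (55.0 kb) lay on the same arm, PRPF6 to RGS19 with SOX18 (45.9 kb) and PMEPA1 (42.6 kb) on chromosome 20. DLL3, an inhibitory Notch ligand (chromosome 19, 39493801 to 39523300), was among the 6 most heavily read, with 2785 and 2066 reads with DOX, and 2602 and 1563 with H2O.

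The HOX clusters stayed under the mark, over less of their length in most pairs. HOXC was covered over 47.4 and 28.3% of its 117.2 kb with DOX, and 68.7 and 37.8% with H2O. HOXD was covered over 47.5 and 43.2% with DOX, and 66.8 and 47.7% with H2O, and HOXB without HOXB13 over 65.3 and 48.3% with DOX, and 77.3 and 60.1% with H2O. These clusters were covered less with DOX in both pairs. HOXA had 61.4 and 43.3% with DOX, and 78.1 and 41.1% with H2O, lower in pair 1 and higher in pair 3.

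Read counts in the 13265 shared regions were tested for a change between treatments. With the replicate number as a block edgeR called 0 regions lower and 0 higher (0% each). The study reported depleted H2AK119ub peaks in this line, but with other regions, counts, scaling and test, so the results are not like for like. At an unadjusted p under 0.05 there were 278 lower (2.1%) and 337 higher (2.54%), and DESeq2 called 2 lower (0.0151%) and 0 higher. The scaling sets the typical region to no change, which hides a shift shared by all, and regions without a domain in 1 or more libraries were left out. Counts are summed over called domains and so move with the called length. In 1608 regions (12.1%) both DOX values lay under both H2O values, and in 1556 (11.7%) they lay above them. The median log2 fold change was -0.02 over all regions. By pair, regions at H3K4me3-only promoters had medians of 0.04 and -0.38, at bivalent promoters of -0.05 and 0.07, at H3K27me3-only promoters of -0.13 and 0.55 and away from promoters of -0.02 and 0.28.

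The regions with the lowest p-values that moved the same way in both pairs are given as not called. Of those lower with DOX 4 are given. TP53INP2, an autophagy gene (chromosome 20, 34700401 to 34706700), had 52 and 17 reads with DOX, and 311 and 93 with H2O, a log2 fold change of -2.71 (SE 0.47, edgeR adjusted p = 0.142). CPLANE1, a cilium gene (chromosome 5, 37247201 to 37250800), had 25 and 21 reads with DOX, and 182 and 121 with H2O, or -2.92 (SE 0.56, edgeR adjusted p = 0.243). These were the 2 regions that DESeq2 called (adjusted p = 0.0135 for both). The other two lay within IQUB (18 and 81 reads with DOX, 200 and 127 with H2O) and 20.4 kb from EGLN3, a prolyl hydroxylase of the hypoxia pathway (71 and 126 reads with DOX, 274 and 168 with H2O). In all 4 the groups did not overlap, beside 12.1% of all regions lower without overlap. Domains were called over 0.3 to 2.2 kb with DOX, against 2.5 to 8.8 kb with H2O. The choice by p-value favours both, as counts are sums over called domains.

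The 6 regions higher with DOX lay in no promoter or gene body, were 9.3 to 20.1 kb wide and held no H3K4me3 domain in any library of the line. H3K27me3 domains covered 30.1 to 100% of each with DOX, and 14.9 to 100% with H2O. This was not particular to them. The lower region 20.4 kb from EGLN3 was covered over 100 and 100% with DOX, and 97.8 and 72.2% with H2O. That in IQUB was covered over 100 and 42.6% with DOX, and 100 and 80.9% with H2O. Those of TP53INP2 and CPLANE1 had 0%, and the share over all regions was not computed. The lowest p was 39.6 kb from SSPN, a gene of the dystrophin complex (chromosome 12, 26274401 to 26294500), with 324 and 1060 reads with DOX, and 164 and 187 with H2O, a log2 fold change of 1.51 (SE 0.23, edgeR adjusted p = 0.142). A region 6.46 kb from CEACAM21 (chromosome 19, 41593301 to 41607800) had 361 and 604 reads with DOX, and 169 and 142 with H2O, or 1.36 (SE 0.24, edgeR adjusted p = 0.142). One lay 180.6 kb from IRX4 and another 140.5 kb from EGLN3, with 137 and 490 reads with DOX, and 31 and 113 with H2O. The groups did not overlap in the SSPN and CEACAM21 regions. The others, near IRX4, EGLN3, URI1 and VSTM2B, had a higher depth-scaled count in H2O replicate 3 than in DOX replicate 1.

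**Figure D5:**
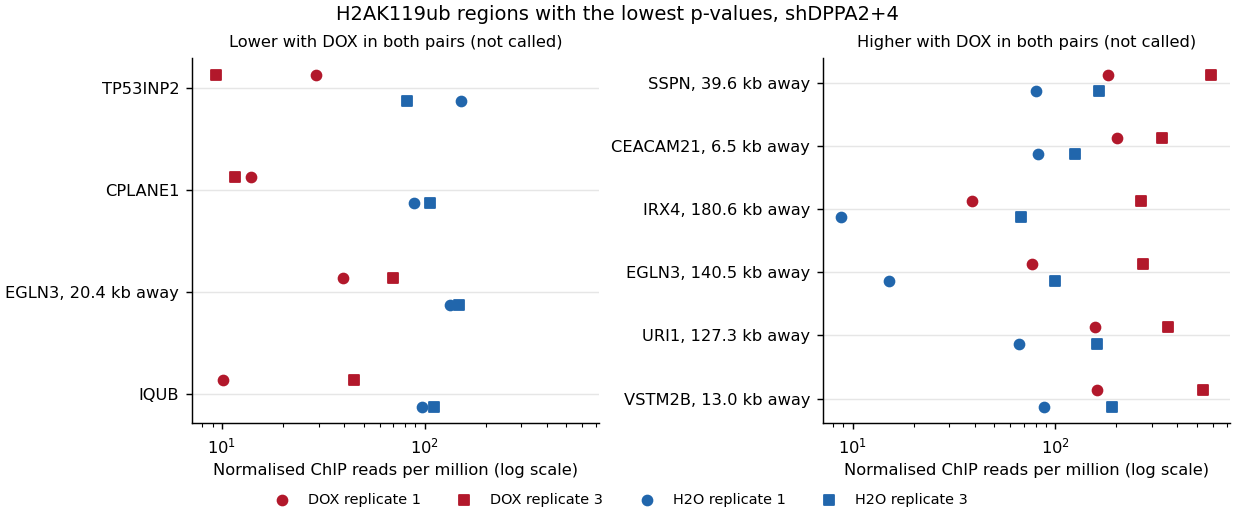
Depth-scaled ChIP counts (CPM, x axis, log scale) in each library for 4 regions lower with DOX (left) and 6 higher (right), named by a gene they overlap or by the nearest gene and its distance in kb, DOX red and H2O blue, circles for replicate 1 and squares for replicate 3. All 4 lower regions separate the groups, and 2 of the higher ones (SSPN, CEACAM21) do, which the choice by p-value favours.

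The gene lists were described by their medians. The median log2 fold change was -0.18 for 27 HOX regions, -0.10 for 139 regions of developmental transcription factors, 0.01 for 52 Wnt regions and 0.00 for 62 axon guidance regions, against -0.02 over all. PRC1 subunits (-0.48, 21 regions), G1 regulators (-0.36, 17), ribosomal proteins (-0.34, 20) and immediate early genes (-0.28, 28) had lower medians, with pair medians of -0.09 and -0.65 for PRC1 subunits and of -0.11 and -0.49 for immediate early genes. All list regions lie at promoters, however. The median was -0.18 for regions at H3K4me3-only promoters and 0.10 for those away from promoters. The genes that the study names had a median of -0.44 over 9 regions of 7 genes (-0.03 in pair 1 and -0.78 in pair 3). Of these regions 66.7% were lower with DOX in both pairs and 0% higher, beside 24.1 and 25.3% of all regions. The list was chosen on these samples and DLX1 and DLX2 hold several neighbouring regions, so the shares are no independent evidence of a fall. Of regions at H3K4me3-only promoters 33.3% were lower and 15.0% higher in both pairs. Of the 139 developmental regions 6 were lower at an unadjusted p under 0.05 (4.32%, beside 2.1% of all) and 0 higher. Among these 6 were FOXD1, PAX6, ZIC2, ZIC5 and POU3F2. Regions of this list were wide, with a median of 8.9 kb against 3.8 kb over all. Of all regions of 5 to 10 kb, 3.45% were lower at that threshold. FOXD1, a forkhead factor (chromosome 5, 73449801 to 73454600), had 18 and 24 reads with DOX, and 155 and 70 with H2O. Of 8 germline and early embryo regions 3 were lower at that threshold, the germ cell regulators NANOS3 (118 and 24 reads with DOX, 232 and 108 with H2O), PRDM1 (86 and 62 with DOX, 166 and 98 with H2O) and LIN28A (106 and 44 with DOX, 180 and 84 with H2O). Other lists were above 2.1% too, with 2 of 20 ribosomal protein regions (10%), 2 of 20 mesenchymal (10%) and 2 of 28 immediate early (7.14%) lower and 0 higher. The remaining lists had 0 or 1 lower region each. None of these regions passed after adjustment over all 13265.

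The gene bodies of 14100 genes with a transcript of at least 10000 bp were sparsely covered. The mean covered share was 3.91 and 4.57% with DOX, and 5.84 and 2.97% with H2O, and 162 and 219 gene bodies were covered over at least 50% with DOX, and 348 and 89 with H2O. In 747 genes (5.3%) both DOX values were under both H2O values, and in 423 (3%) above them. Genes named here were chosen after their values were seen. EGLN3 was covered over 9.36 and 36.5% with DOX, and 79.6 and 66.1% with H2O. SSPN was covered over 0 and 27.1% with DOX, and 56.2 and 45.1% with H2O, while the region 39.6 kb away was higher. Among those above, PRX, the gene of the myelin protein periaxin, was covered over 47.7 and 67.0% with DOX, and 0 and 35.0% with H2O, and MPO, the neutrophil peroxidase, over 7.31 and 54.8% with DOX, and 0 and 0% with H2O.

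The line was compared with the lines of 1 hairpin over 6 paired differences. The share of H3K4me3-only promoters marked differed between DOX and H2O by -8.40 points on average here and by -18.6 over the 4 pairs of shDPPA2 and shDPPA4, a difference of 10.2 points (two-sided exact permutation p = 0.533, or 0.733 after adjustment over 4 measures, with 0.0667 the smallest possible). Domain number, covered length and median width gave exact p of 0.733, 0.733 and 0.4. In 6161 regions with a domain in all 12 libraries edgeR called 0 (0%) as different between the lines, with 172 at an unadjusted p under 0.05.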

How the data were processed

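H2AK119ub ChIP-seq libraries of NCI-H661 shDPPA2+4 cells (2 DOX, 2 H2O) were analysed, with 24 further lists of the knockdown lines for comparison. The submitters' processing notes name hg38 and the tools BWA 0.7.13, Trim Galore 0.6.6, Picard 2.6.0, SAMtools 1.9 and deepTools 3.5.0. The authors called domains in each library with EPIC2 on 100 bp bins against the input of that line and treatment. The deposited ChIP and input columns hold counts of reads per domain without normalization. The deposited log2 fold column is ChIP over input relative to library totals, and the deposited p-value and FDR columns are those of the caller. These served only to filter domains. Mouse spike-in reads were not used and blacklisted regions were not removed here.

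Counts were tested with edgeR 4.0.16 in R 4.3.3 (quasi-likelihood, TMM, replicate number plus treatment, Benjamini-Hochberg, adjusted p under 0.05 and absolute log2 fold change of at least 0.5), with DESeq2 1.42.0 as an alternative. Regions with a mean of under 10 reads, or with no domain in some library, were left out. The block follows the study, whose model held batch and treatment, but the rest of the test does not. The study counted all reads at consensus peaks, scaled them by TMM over large genomic bins and used a likelihood ratio test. Here only reads inside called domains were counted. Deviations of same-numbered libraries from their group means correlated at 0.428 within the line and at 0.238 or more over 3 lines. The fit was tested on simulated data, where at the fitted spread it called only part of the changed regions. The study describes its replicates as biological. As the labels only number them, a p-value covers the spread among these libraries, which may be technical.

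Promoters used the canonical transcripts of GENCODE 44. Members and gene lists were chosen with earlier results of these data known. Named promoters were the 12 lost and 8 gained with the longest coverage in the marked group, and named regions the 6 widest, the 6 with the most reads and, as fewer than 10 were called, the 6 with the lowest p in each direction that moved alike in both pairs. Some items that the rule selects are not reported here.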

Additional observations from a re-analysis of the deposited data

Results flagged for a closer look

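Several widths moved in opposite directions in different lines, in every pair of each. Of 19 measures, each compared with the other 2 lines, 5 comparisons were flagged so. With 2 pairs per line this can arise from signs alone, and how often was not tested. The width measures overlap one another. In H2O replicate 1 the 90th percentile of width was 1900 bp in shDPPA2, against 3200 bp in shDPPA2+4 and 2900 bp in shDPPA4. The difference between the lines was not tested in any of the flagged measures. The 10th percentile of domain width was 400 and 400 bp with DOX, and 600 and 500 bp with H2O in shDPPA2+4, but 700 and 600 bp with DOX, and 300 and 400 bp with H2O in shDPPA2, so that the mean paired differences were apart by -450 bp. The 90th percentile was 2100 and 1800 bp with DOX, and 3200 and 2000 bp with H2O in shDPPA2+4, and 3400 and 2400 bp with DOX, and 1900 and 2000 bp with H2O in shDPPA2 (apart by -1600 bp). The share of domains of 5000 bp or more was lower with DOX in both pairs of shDPPA2+4 and higher in both of shDPPA2, at 4.49 and 1.85% with DOX, and 0.945 and 1.19% with H2O (apart by -3.43 points). The share of ChIP reads in such domains was 13.2 and 10.2% with DOX, and 25.4 and 10.5% with H2O in shDPPA2+4, and 26.6 and 13.9% with DOX, and 10.8 and 12% with H2O in shDPPA2 (apart by -15.1 points). The share of covered bases under H3K27me3 was lower with DOX in both pairs of shDPPA2+4, and higher in both pairs of shDPPA4, at 11.8 and 15.2% with DOX, and 10.7 and 14.3% with H2O (apart by -2.06 points).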

How the results depend on the processing

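Losses outnumbered gains at every setting with all 4 libraries. Lost promoters numbered 238 without the domain filter and 1029 under a stricter domain filter (log2 fold over 2, FDR below 0.01), and gained ones 96, 493 and, when 1000 bp had to be covered, 55. With libraries left out, 675 to 2380 were lost and 284 to 1330 gained, and gains exceeded losses without DOX replicate 3 only (774 lost, 1002 gained). That setting leaves the groups uneven, and without both libraries of replicate 3 losses exceeded gains (1994 lost, 1302 gained). The mean difference in the marked share of H3K4me3-only promoters stayed negative at all 6 settings tried and was -2.81 points without replicate 3 and -14 without replicate 1. Covered length changed sign, at -31.6 Mb without replicate 3 and 37.9 Mb without replicate 1. The share of H2O domains absent in both DOX libraries (13.3%) was 9.96% when 1 bp of overlap sufficed, 25.3% when 50% had to be covered, 14.1% with H2O domains joined at over 25% of overlap and 35.2% at the stricter filter, and 29.0 to 29.99% with 1 DOX library alone. The cause was not tested.

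In the region test DESeq2 called 2 regions and the lists without the domain filter gave 1, in SIPA1L3 (chromosome 19, 38018401 to 38025700, 211 and 243 reads with DOX, 26 and 12 with H2O). At the other 12 settings edgeR called 0. Without the replicate block 0 regions were called, with 191 at an unadjusted p under 0.05, and with the called length as an offset 0, with 41, all higher. Leaving out libraries in the fit of 12 gave 0 to 0 calls. The difference between lines gave 0 without the block, and in the marked share of H3K4me3-only promoters it ranged from 3.27 to 17.1 points with 1 replicate left out. With the gene's 5′ end as TSS, a setting chosen after seeing the data, 446 promoters were lost and 154 gained. Reads in domains were fewest in H2O replicate 3, and the effect of depth on the calls was not tested.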

Other observations

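Several neighbouring genes of chromosome 19 between 38211006 and 38370943 differed in coverage in opposite directions. They were chosen after their values were seen. The body of DPF1, a chromatin remodelling subunit, was covered over 36.8 and 46.0% with DOX, and 98.3 and 71.8% with H2O. The neighbouring YIF1B, a Golgi transport gene, was covered over 73.4 and 68.4% with DOX, and 26.1 and 51.3% with H2O. CATSPERG, of the sperm calcium channel, was covered over 39.6 and 27.4% with DOX, and 65.3 and 49.0% with H2O. In DPF1, YIF1B and CATSPERG the groups did not overlap, beside 5.3% of all gene bodies lower and 3% higher with DOX without overlap. KCNK6, in the same interval, was covered over 11.7 and 66.7% with DOX, and 86.2 and 62.9% with H2O. There the groups overlapped, lower with DOX in pair 1 and higher in pair 3.

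By chromosome, lost promoters made up 10.7% of those marked in both H2O libraries on chromosome X (18 of 168), 8.27% on chromosome 4 and 7.20% on chromosome 5, and 2.70% on chromosome 15 and 3.12% on chromosome 17, beside 5.08% over all chromosomes. The 7 promoters lost in all 3 lines were INPP1, ENAH, FIGN, KLHL24, IL6ST, EDRF1 and NEMP1. They stand beside 443 lost in shDPPA2+4, 541 in shDPPA2 and 968 in shDPPA4. How many would be shared by lists of these sizes alone was not tested.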
